A study of Mus musculus with 4 samples.

Results

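B lymphocytes were followed in the cells of a GFP sort aimed at AT2 cells, the lung epithelial cells that make surfactant. A cell was counted as a B cell when Cd79a, Cd79b and Ms4a1 together had at least 3 unique molecular identifiers (UMIs, the tags that count single RNA molecules), when Cd3e, Cd3d and Cd3g had 0, and when Sftpc, the surfactant gene whose promoter drives the Cre, made up less than 4% of its UMIs. The members were thus chosen by these measured values, and they were 60 of the 10077 cells deposited. The cells set beside them were the 522 with at least 2 UMIs of Cd3e, Cd3d and Cd3g, called T cells here by that rule. Null PNX held 11 of the B cells and 134 of the T cells, null sham 26 and 199, control PNX 5 and 75, and control sham 18 and 114.

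Single-cell RNA sequencing with the 10x 3′ protocol compared mice whose AT2 cells lack Cdc42, a small GTPase of the actin cytoskeleton, with mice whose AT2 cells keep it, with and without pneumonectomy (PNX, removal of part of the lung). Null mice carried Sftpc-CreER, Cdc42flox/- and Rosa26-mTmG, and control mice carried Sftpc-CreER, Cdc42flox/+ and Rosa26-mTmG, so all mice had the Cre, the reporter and at least 1 altered Cdc42 allele, and all received 4 doses of tamoxifen. PNX libraries came from day 21 after surgery, sham libraries from sham-treated mice, and postnatal day 80 is given for all. Each group was 1 library of GFP+ cells, and how many mice went into a library is not stated. The Sftpc promoter is not known to be active in B cells. Cdc42 had 52 UMIs in null PNX B cells, 22 in null sham, 6 in control PNX and 23 in control sham. These were 799, 361, 383 and 488 counts per 1000000 UMIs (CPM), against 544, 417, 369 and 514 CPM in the T cells of the same libraries. The UMIs were counted per gene, not per exon or allele, so they do not tell whether Cdc42 was recombined in these cells.

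B cells are the lymphocytes that carry immunoglobulin as their antigen receptor. The receptor signals through the paired chains Cd79a and Cd79b, its strength is set by coreceptors and by inhibitors such as Cd22, and the transcription factors Ebf1 and Pax5 hold the cells in their lineage. Resting B cells also take up antigen and show its peptides to T cells on MHC class II molecules. In the mouse lung they are found in blood, in the tissue and in lymphoid aggregates near airways.

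The MHC class II genes and the B-cell gene Vpreb3 are described further down as groups of genes that were higher in the B cells, so promoter sequence of a few of them is shown here. The class II genes lie together on chromosome 17, and their promoters are known for a shared set of short elements, one of which, the Y box, binds NF-Y. Each line gives 100 bases, from 120 to 21 bases before the RefSeq start site, 5′ to 3′ on the strand of the gene (RefSeq, GRCm38.p6). Capitals mark the Y box letters TGATTGG, or the octamer bound by Oct factors in Vpreb3, a gene that encodes a protein tied to the immature B cell receptor.
H2-Aa, chr17:34287844-34287943, minus strand: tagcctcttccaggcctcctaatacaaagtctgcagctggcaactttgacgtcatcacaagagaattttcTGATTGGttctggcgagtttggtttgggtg
H2-Eb1, chr17:34305747-34305846, plus strand: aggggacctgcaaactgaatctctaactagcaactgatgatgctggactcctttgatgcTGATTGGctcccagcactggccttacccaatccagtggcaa
H2-Oa, chr17:34092259-34092358, plus strand: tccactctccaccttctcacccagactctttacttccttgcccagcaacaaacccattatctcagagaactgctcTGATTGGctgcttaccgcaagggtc
H2-DMb2, chr17:34145129-34145228, plus strand: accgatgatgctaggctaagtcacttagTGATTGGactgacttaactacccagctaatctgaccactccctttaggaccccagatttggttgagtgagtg
Vpreb3, chr10:75948180-75948279, plus strand: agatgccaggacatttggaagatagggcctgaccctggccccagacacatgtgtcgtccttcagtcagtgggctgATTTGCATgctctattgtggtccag

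The Y box letters were searched on both strands in the 250 bases before each start. They were present in 6 of the 7 class II genes of the H2 region that matched a promoter, out of 8 such genes on the list. H2-DMa had no match and H2-Ab1 has no sequence in the table used. Of all 27025 genes with promoters of the same length, 8.38% held these letters. The octamer ATGCAAAT, or its reverse complement, was in 3 of 31 matched genes of the receptor and signalling lists, namely Blnk, Prkcb and Vpreb3, against 1.81% of all genes. The Y box letters were in 1 of these 31 genes, Fcrla, so at most 1 gene could hold both, and none did. The share of all genes with both was not counted. A match is a stretch of letters and was not tested as a binding site.

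The 4 libraries held 2111 to 3344 cells and 9868802 to 24897537 UMIs, and the fewest UMIs in a cell were 2669 in null PNX, 1379 in null sham, 1171 in control PNX and 691 in control sham. The part of that minimum in the shares of B cells was not tested. Summed over the B cells, null PNX had 65116 UMIs, null sham 60997, control PNX 15661 and control sham 47132. A gene with 3 UMIs in those sums stood at 46.1, 49.2, 192 and 63.7 CPM in that order of libraries, which is the floor used for a gene with 0 in comparisons between libraries. The median B cell had 3936 UMIs and 1591 detected genes in null PNX, 2219 and 879 in null sham, 2877 and 972 in control PNX and 2414.5 and 910 in control sham. Over all libraries the median was 2487.5 UMIs and 962 genes in B cells and 3228 UMIs and 1204 genes in T cells. The B cells shared 0 barcodes with cells of other libraries, against 1 of the T cells and 108 of all cells.

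Few cells lay near the threshold of the rule. Of the cells that met the other conditions, 2118 had 0 UMIs of Cd79a, Cd79b and Ms4a1, 128 had 1, 16 had 2, 2 had 3, none had 4 and 1 had 5, and the highest member had 36. The 16 cells just outside had a median of 13748.5 UMIs, 14 of them had Cd79b as their only rule gene, and 0 had an Ebf1 UMI. The 2 cells just inside were 1 null sham cell with 2 Cd79a, 1 Cd79b and 6 Ebf1 UMIs, and 1 null PNX cell with 3 Cd79b UMIs, no other rule gene and 0 Ebf1. A further 15 cells passed the count but had 5.61% to 11.01% Sftpc, and 13 of those had Cd79b only.

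Among the 60 members, Cd79a (chromosome 7, 24897381 to 24902197 of GRCm38) was seen in 59, Cd79b (chromosome 11, 106311341 to 106314762) in 59, and Ms4a1, the CD20 gene (chromosome 19, 11249675 to 11266241), in 45. The median member had 8 Cd79a, 4 Cd79b and 1.5 Ms4a1 UMIs, with highest values of 16, 18 and 11. These values describe the choice and carry no test. Ebf1, which the rule did not use, was present in 58 of 60 B cells and in 2 of 522 T cells. Both members without it were in null PNX.

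**Figure D1:**
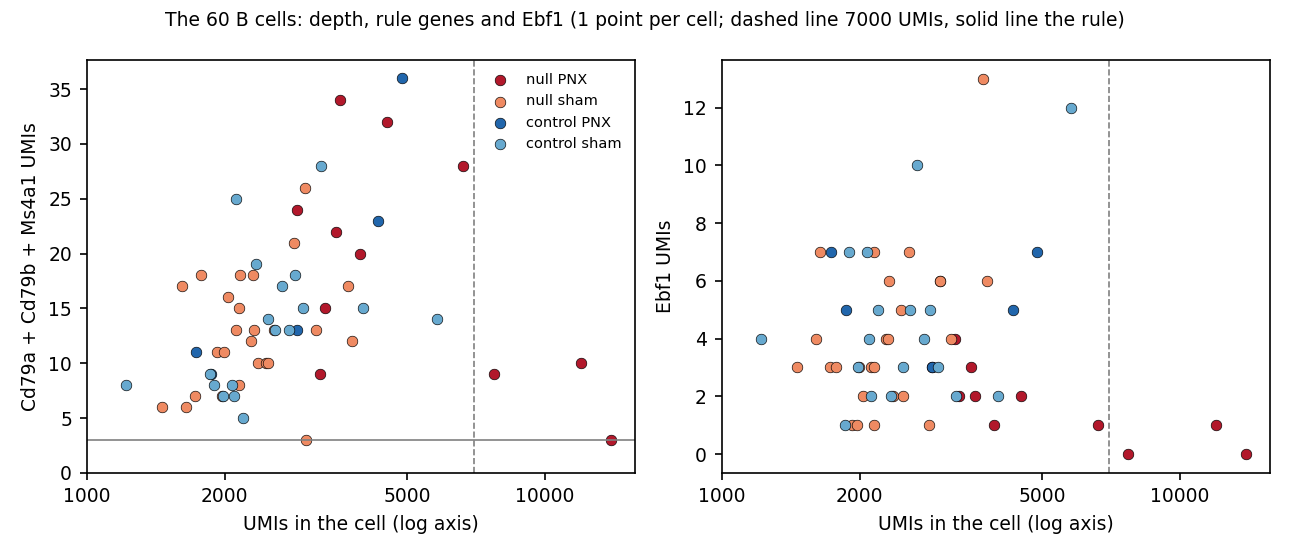
Each point is 1 of the 60 B cells, colored by library, with its UMIs on a log axis against its UMIs of Cd79a, Cd79b and Ms4a1 (left) and of Ebf1 (right). The 3 cells right of the dashed line at 7000 UMIs are null PNX cells with 0 or 1 Ebf1 UMI, and the solid line marks the threshold of 3.

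Those 3 null PNX cells stood apart from the others, and they held 51.6% of the UMIs of all null PNX B cells. The first, with 7719 UMIs, had 1784 UMIs of Jchain (the chain that joins secreted IgM and IgA, chromosome 5, 88519809 to 88527891), which were all the Jchain UMIs of the 60 members. It also had 29 UMIs of Mzb1, 31 of Xbp1, the transcription factor of secretory cells, 5 of Sdc1 (CD138) and 41 of Ly6a, with 0 Ms4a1 and 0 Ebf1. The second, with 11957 UMIs, had 8 Cd79a and 2 Cd79b UMIs beside 70 of the keratin Krt8, 107 of the surfactant gene Sftpb and 3.82% Sftpc. The third, with 13894 UMIs, had 3 Cd79b and 0 Cd79a UMIs beside 76 of Krt8, 361 of S100a6 and 8 of the epithelial adhesion gene Epcam. The counts of genes, the shares and the ratios between libraries are also given without them below, a choice made after the data were seen. The other 57 members had 1221 to 6630 UMIs and at most 3 Krt8 UMIs.

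B cell markers that the rule did not use were found in the members and hardly in T cells. Cd22 was present in 21 of 60 B cells against 1 of 522 T cells, Fcmr in 38 against 2, and Pax5 in 12 against 0. With each cell thinned to 1000 UMIs, the shares of B and T cells were 73.7% and 0.145% for Ebf1 and 9.40% and 0 for Pax5. Of the markers of other blood and stromal types, 8 of 8 natural killer, 4 of 4 basophil and mast cell and 4 of 4 erythroid genes were at 0, as were 5 of 6 fibroblast, 5 of 7 dendritic cell, 4 of 6 endothelial, 4 of 10 macrophage and monocyte and 4 of 7 neutrophil genes. The macrophage and monocyte sum was 63.7 to 276 CPM over the B cells of the 4 libraries, against 190 to 781 CPM over the T cells, and its highest B value, in null PNX, was 127 CPM without the 3 deepest cells. Airway and alveolar type I genes were present. The 5 airway markers summed to 447 to 1229 CPM in B cells, against 402 to 2031 CPM in T cells, and Scgb1a1, the secretory protein of club cells, had a UMI in 54 of 60 B cells and 471 of 522 T cells. The 6 alveolar type I markers summed to 63.9 to 445 CPM in B cells, against 366 to 1166 CPM in T cells, and 3 of the 6 were at 0 in B cells. The null PNX sum was the highest of these B sums and was 127 CPM without the 3 deepest cells. Of the plasmacytoid dendritic cell genes, Ly6d, which B cells also express, held 328 of 329 UMIs. Genes of the immunoglobulin chains were not analysed here, so neither heavy-chain class nor light-chain use is reported.

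RNA of alveolar cells was present in all of them. Sftpc made up 0.101% to 3.82% of a member's UMIs, and the 9 AT2 markers summed to 20103 CPM in null PNX, 8935 in null sham, 6960 in control PNX and 12136 in control sham B cells. Without the 3 deepest cells the null PNX sum was 8717 CPM, below the sums of both sham libraries. In T cells, which were not limited by Sftpc, the same sums were 66061, 38442, 37385 and 30620 CPM in that order, and 60 T cells had 4% Sftpc or more. Of the 8 AT2 markers tested, 7 were lower in B cells than in T cells (the count is set beside a rule that limited Sftpc in B cells and not in T cells). No step removed droplets that held 2 cells.

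B cells were a small share of each library. They were 0.464% of null PNX cells (11 of 2370, exact binomial 95% interval 0.232% to 0.83%), 0.778% of null sham cells (26 of 3344, 0.509% to 1.14%), 0.222% of control PNX cells (5 of 2252, 0.0721% to 0.517%) and 0.853% of control sham cells (18 of 2111, 0.506% to 1.34%). Per 100 B and T cells, there were 7.59 B cells in null PNX (3.85 to 13.2), 11.6 in null sham (7.69 to 16.5), 6.25 in control PNX (2.06 to 13.99) and 13.6 in control sham (8.29 to 20.7). The intervals of PNX and sham libraries overlapped in both genotypes, and each is 1 library, so no difference between the groups was tested. PNX was also below sham in both genotypes with each cell thinned to 1000 UMIs, at 0.338% in null PNX, 0.658% in null sham, 0.222% in control PNX and 0.712% in control sham. With 2 UMIs allowed in the rule, null PNX had 0.928% and null sham 0.897%, so the order was turned. Without its 3 deepest members null PNX had 8 B cells, 0.338% of its cells and 5.63 per 100 B and T cells. Intervals here and below cover counting error only.

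**Figure D2:**
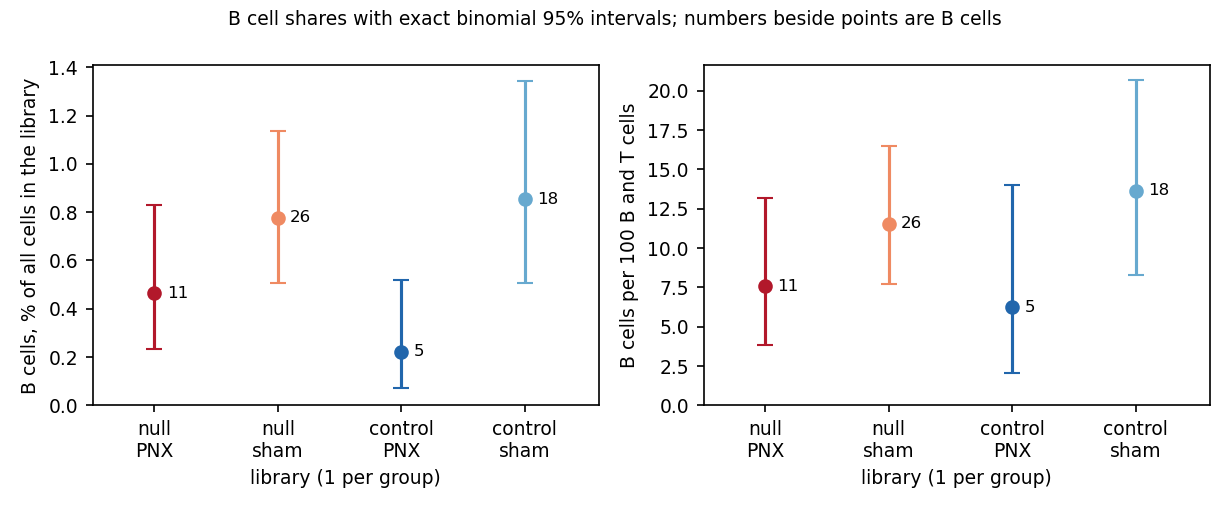
B cells as a percentage of all cells (left) and per 100 B and T cells (right) in each of the 4 libraries, with exact binomial 95% intervals and the number of B cells beside each point. Both PNX libraries had a lower point than their sham library, with overlapping intervals.

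B cells were compared with T cells by summing UMIs per library and class, which gave 4 B sums and 4 T sums paired by library, and testing them with edgeR's quasi-likelihood test with library as a block. The replicates of this comparison are the 4 libraries, which differ in genotype and surgery. Of 2204 genes tested, 128 were higher in B cells (5.81% of those tested) and 140 were lower (6.35%) at a Benjamini-Hochberg false discovery rate (FDR) of 0.05, and the median log2 difference over all tested genes was -0.05. Without the 3 deepest null PNX cells, 166 genes were higher and 206 lower, with 119 of the 128 and 136 of the 140 among them. The genes of the 2 rules were left out of the test. The other genes of the B and T programs are known to be expressed together with them, so a difference in such genes describes the cells that the rules picked. The levels and fold changes below are on the CPM scale of the summed class.

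The genes of the B cell receptor and its coreceptors were higher together. Of the 18 on the list, 3 were rule genes and 12 passed the filter on low counts, and 11 of the 12 were higher in B cells, with a median log2 difference of 6.02. Cd22, an inhibitory receptor, had 123 CPM in null PNX, 164 in null sham, 255 in control PNX and 149 in control sham B cells, against 0, 1.30, 0 and 0 in the T cells of the same libraries. The classes did not overlap, and the pooled ratio on 29 and 1 UMIs had an exact 95% interval of 59.8 to 14722 (edgeR FDR 3.96e-07). Null PNX had 254 CPM without its 3 deepest cells.

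Siglecg, a sialic acid receptor that restrains the B cell receptor, had 123, 525, 639 and 488 CPM in B cells, against 0, 0, 0 and 2.63 in T cells. Fcmr, the receptor for IgM, had 215, 492, 447 and 679 CPM in B cells, against 2.24, 0, 0 and 0 in T cells. For both genes the null PNX value was the lowest of the B cells and still above every T value. Without the 3 deepest cells it was 254 CPM for Siglecg and 380.4 CPM for Fcmr. Fcrla and Fcrl1, Fc receptor-like genes, were also higher in B cells. The pooled level of Fcrla, with 0 UMIs in T cells, was at least 191-fold higher, and Fcrl1, with 2 UMIs in T cells, had an interval of 73.1 to 2380 for its pooled ratio. Cd37, a tetraspanin, had a smaller difference of 2.04 ± 0.24 on the log2 scale (SE, edgeR FDR 8.00e-06), and so had Cd81, another tetraspanin, at 1.58 ± 0.31 (edgeR FDR 0.00191). Cd52 was also called at 0.65 ± 0.17 (edgeR FDR 0.0188), but the call was lost with null PNX left out (edgeR FDR 0.151) and with null sham left out (0.127). Cd53 had a log2 difference of 0.64 ± 0.26 and did not pass (edgeR FDR 0.161).

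Downstream of the receptor, 9 of 11 tested genes of 22 listed were higher in B cells and none was lower, with a median log2 difference of 3.27. Blnk, the adaptor that links Syk to its targets, had 138, 131, 128 and 276 CPM in B cells of null PNX, null sham, control PNX and control sham, against 0 UMIs in all T cells, so that its level was at least 133-fold higher. Bank1, a scaffold of the same pathway, had 307, 574, 447 and 255 CPM in B cells, against 1.12, 0, 0 and 0 in T cells, and had 634 CPM in null PNX without the 3 deepest cells. Neither gene overlapped between the classes. Vpreb3, whose promoter is shown above, had 92.1, 164, 128 and 361 CPM in B cells, against 4.48, 9.09, 9.80 and 7.90 in T cells, a log2 difference of 4.51 ± 0.47 (edgeR FDR 1.73e-06). Ralgps2, Dok3, Swap70, Prkcb, Ptpn6 and Sh3bp5 also passed, at 3.27, 4.98, 4.46, 2.72, 1.38 and 1.78 on the log2 scale. The calls of Ptpn6, the phosphatase SHP-1, and Sh3bp5 were lost with control sham left out (edgeR FDR 0.0503 and 0.0902), and that of Sh3bp5 also with null sham left out (0.130). The kinase Blk had 1.94 ± 0.65 (edgeR FDR 0.0633) and did not pass, and the kinases Lyn, Syk and Btk had too few UMIs for the test.

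**Figure D3:**
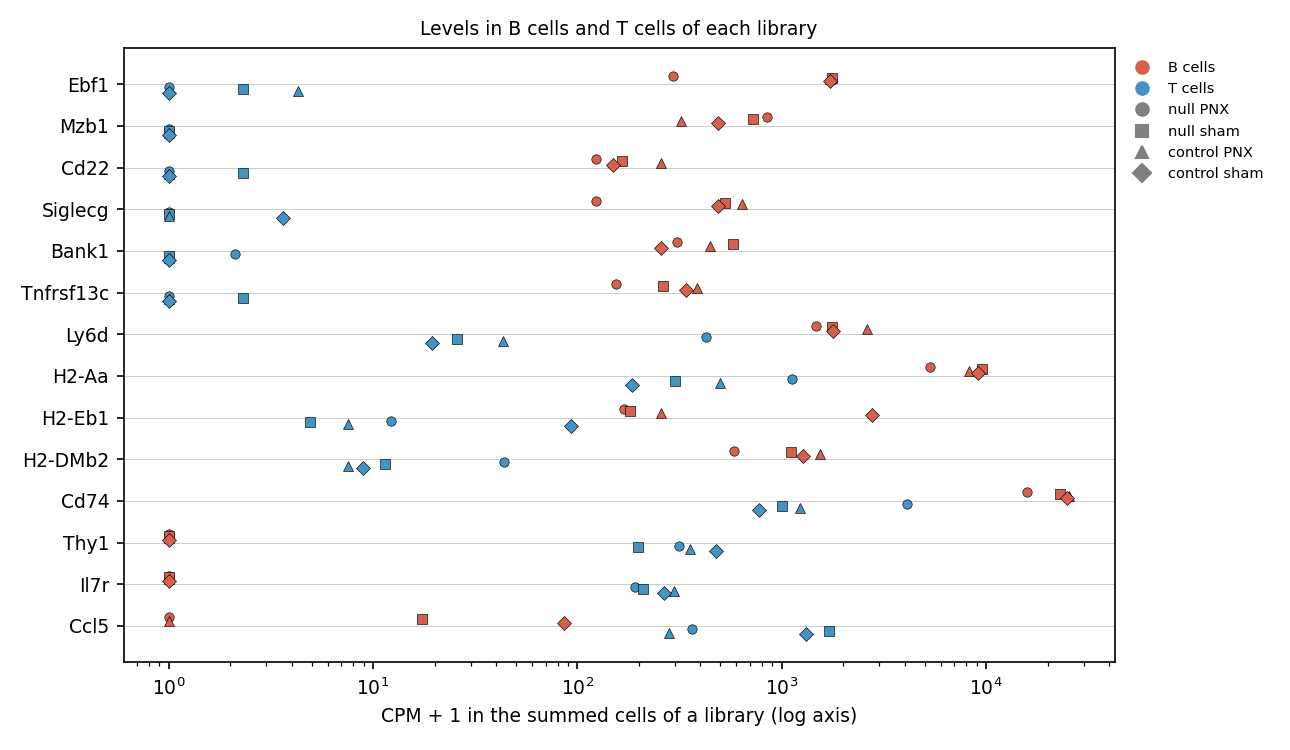
Level of 14 genes as CPM + 1 on a log axis, in the summed B cells (red) and T cells (blue) of each library, with 1 symbol per library. The genes were chosen for their size or role, and B and T symbols do not overlap for any of the 14, as for 6.22% of all tested genes in the direction of B cells and 7.49% in that of T cells. The null PNX circle includes the 3 deepest cells, and it is the lowest B value of Ebf1 and Siglecg with and without them.

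The transcription factors gave a mixed list. Of 24 listed, 13 were tested, 7 were higher in B cells, none was lower, and the median log2 difference was 3.58. Ebf1 (chromosome 11, 44617317 to 45008091) had 292 CPM in null PNX, 1754 in null sham, 1724 in control PNX and 1719 in control sham B cells, against 0, 1.30, 3.27 and 0 in T cells. Null PNX was thus far below the other B sums, and without its 3 deepest cells it had 571 CPM. The pooled ratio of B to T cells was 1454 with an interval of 398 to 12079, on 234 and 2 UMIs (edgeR FDR 5.06e-11).

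Mef2c, a factor of B cell survival and proliferation, had a log2 difference of 7.95 ± 0.44, with 261, 705, 447 and 658 CPM in B cells, against 1.12, 3.89, 0 and 0 in T cells. Irf8 had 384, 295, 511 and 382 CPM in B cells, against 12.3, 16.9, 9.80 and 21.1 in T cells, a log2 difference of 4.60 ± 0.33 (edgeR FDR 2.63e-08). Pou2f2, an Oct factor that binds the octamer, and its partner Pou2af1 were both higher. Pou2f2 had 3.58 ± 0.33 on the log2 scale, and Pou2af1 had 36 UMIs in B cells and 2 in T cells, a ratio of 224 (57.6 to 1918). Bcl11a and Spib, with 1 T cell UMI each, had pooled ratios of 373 (62.0 to 15213) and 273 (44.2 to 11286). Ets1, Ikzf1, Klf2, Foxo1, Tcf3 and Cux1, factors that T cells also use, did not pass, and Ets1 and Ikzf1 had log2 differences of 0.04 ± 0.32 and -0.62 ± 0.39. Pax5 did not reach the filter, with 16 UMIs in B cells and 0 in T cells, and 0 of its UMIs were in null PNX.

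Receptors for survival factors and cytokines were tested for 5 of the 11 present in the table, and 4 were higher and 1 lower, with a median log2 difference of 3.39. Tnfrsf13c, the BAFF receptor that keeps mature B cells alive, had 154, 262, 383 and 339 CPM in B cells, against 0, 1.30, 0 and 0 in T cells, a pooled ratio of 597 (102 to 24050), and 285 CPM in null PNX without the 3 deepest cells. Tnfrsf13b (TACI), another receptor for BAFF and APRIL, had 108, 213, 128 and 191 CPM in B cells, against 15.7, 16.9, 9.80 and 15.8 in T cells. Ly86, the partner of the Toll-like receptor relative Cd180, had a log2 difference of 5.86 ± 0.56. Il21r, the IL-21 receptor, was called at 1.61 ± 0.43 (edgeR FDR 0.0171) and was not called with null sham left out (0.416). Ifngr1 was lower in B cells at -1.78 ± 0.36 (edgeR FDR 0.00245). Cd40, through which T cells help B cells, had 16 UMIs in 15 B cells and 0 UMIs in T cells, too few for the test.

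Of 8 homing receptors tested, Cd55 was higher, Itgb7, an integrin chain that T cells use to enter mucosa, was lower at -1.44 ± 0.34 (edgeR FDR 0.00713), and 6 did not pass, beside 5.81% of all tested genes higher and 6.35% lower. Cd55, a complement regulator that was placed on this list and the follicular one, had 138, 246, 128 and 255 CPM in B cells, against 35.9, 23.4, 39.2 and 29.0 in T cells. Ccr7, the receptor that draws lymphocytes to lymph nodes, had 108, 246, 255 and 149 CPM in B cells, against 35.9, 169, 199 and 248 in T cells, and its ranges overlapped. Cxcr5, which leads B cells to follicles, was seen in 8 of 60 B cells and 1 of 522 T cells.

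The MHC class II pathway was higher in B cells in each of its 11 tested genes of 12 listed, with a median log2 difference of 3.99. H2-Aa (chromosome 17, 34282744 to 34287823), an alpha chain, had 5344 CPM in null PNX, 9558 in null sham, 8237 in control PNX and 9081 in control sham B cells, against 1117, 299.9, 499.9 and 184 in T cells, a log2 difference of 4.21 ± 0.40 (edgeR FDR 7.10e-07). Cd74, the invariant chain that escorts class II to endosomes, had 15910, 22903, 25605 and 24994 CPM in B cells, against 4103, 1003, 1232 and 774 in T cells, a difference of 3.99 ± 0.36. For both genes null PNX was lowest among the B sums and highest among the T sums. The low place among B sums rested on the 3 deepest cells, since without them null PNX had 10429 CPM of H2-Aa and 26723 CPM of Cd74, the highest of the 4 libraries. Per cell, the median H2-Aa level was 96.5 per 10000 UMIs in null PNX, 91.0 in null sham, 107 in control PNX and 96.6 in control sham. AT2 cells also express these genes. The AT2 marker sums given above were higher in T cells, where Sftpc was not limited, than in B cells. The part of AT2 RNA in the class II levels was not tested. With T cells limited to those with 0 B rule UMIs and under 4% Sftpc, 10 class II genes were higher.

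H2-DMb2, part of the molecule that loads peptides, had 584, 1115, 1532 and 1273 CPM in B cells, against 42.6, 10.4, 6.54 and 7.90 in T cells, a log2 difference of 5.80 ± 0.47 (edgeR FDR 1.09e-07). H2-DMa had 3.55 ± 0.37. H2-DMb1 had 1.90 ± 0.54 (edgeR FDR 0.0253), and its call was lost with control sham left out (0.103) or null sham left out (0.332). H2-Oa, a chain of the inhibitor of H2-DM, had 76.8, 426, 639 and 149 CPM in B cells, against 5.61, 10.4, 0 and 18.4 in T cells. Its partner H2-Ob had 28 UMIs in B cells and 5 in T cells, a pooled ratio of 69.6 (26.5 to 231), and did not reach the filter. Ciita, the coactivator of class II genes, had a log2 difference of 5.42 ± 0.84 on 16 B cell UMIs. Ctss, which cleaves the invariant chain, had 2.03 ± 0.26, and Ifi30, a thiol reductase of antigen processing, had 3.43 ± 0.32.

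**Figure D4:**
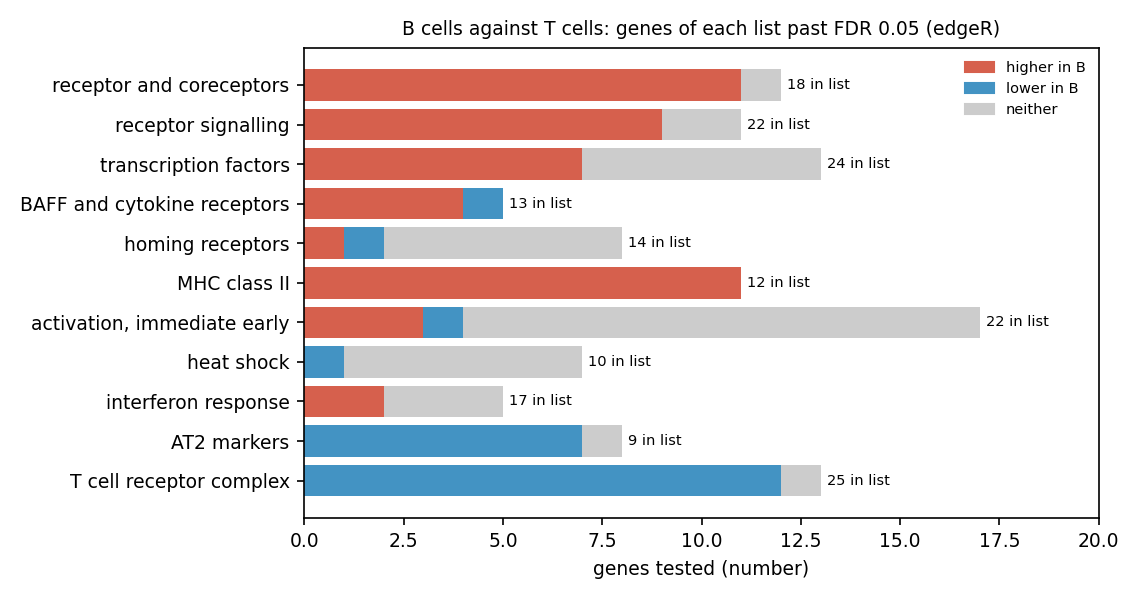
Number of tested genes of each list that were higher in B cells (red), lower in B cells (blue) or neither at an edgeR FDR of 0.05, with the size of the list beside the bar. All 11 tested MHC class II genes were red, and 12 of 13 tested genes of the T cell receptor list were blue.

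H2-Eb1 (chromosome 17, 34305867 to 34316674), a class II beta chain, differed between libraries more than the other class II genes tested. It had 169 CPM in null PNX, 180.3 in null sham, 255 in control PNX and 2758 in control sham B cells, and 349 in null PNX without its 3 deepest cells, against 11.2, 3.89, 6.54 and 92.2 in T cells. The control sham value was high in both classes. Per 100 UMIs of H2-Ab1, another beta chain, the B cells had 4.68 H2-Eb1 UMIs in null PNX, 4.60 in null sham, 7.84 in control PNX and 61.3 in control sham. Cells with at least 4% Sftpc and 10 H2-Ab1 UMIs had 1.57, 2.31, 2.18 and 33.3 in that order of libraries, with control sham again the highest.

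Within control sham the B cells formed 2 sets by this gene. Of its 18 B cells, 8 had 9 to 22 H2-Eb1 UMIs and 10 had 0 to 2, and none lay between. The highest B cell had 6 in null PNX, 2 in null sham and 3 in control PNX. The 8 cells had a median of 14 H2-Ab1, 27 H2-Aa and 72 Cd74 UMIs, and the 10 cells 8, 19.5 and 54.5, and the ranges of the 2 sets overlapped for all 3 of these genes. H2-D1 (chromosome 17, 35262730 to 35267499), a class I gene named after its values were seen, had 1 to 7 UMIs in the 8 cells and 4 to 23 in the 10, with medians of 3.5 and 8. The pseudogene Gm8730 (chromosome 8, 102864845 to 102865798), named in the same way, had 30 UMIs in the 8 cells and 152 in the 10, of which 56 were in 1 cell. The median depth was 2626 and 2082.5 UMIs. These splits are descriptions with no test, and how many mice gave the cells is not known here.

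**Figure D5:**
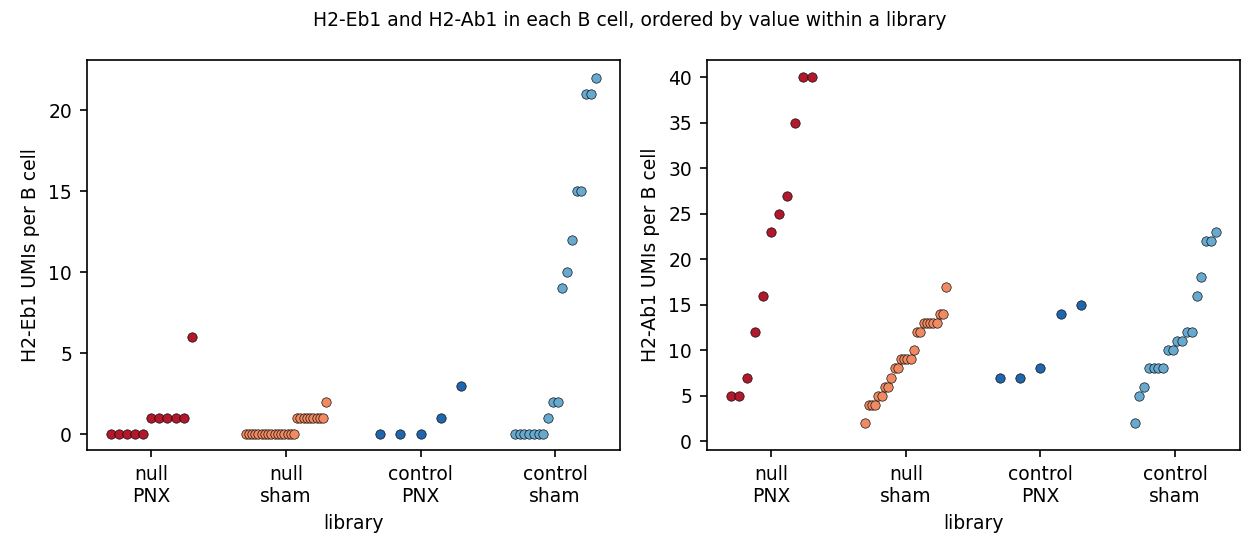
UMIs of H2-Eb1 (left) and H2-Ab1 (right) in each B cell, ordered by value within each library. In control sham 8 of 18 cells had 9 to 22 H2-Eb1 UMIs and the others 0 to 2, while H2-Ab1 ran without a gap of that kind.

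T cell genes were at the other end. Of the T cell receptor list, 12 of 13 tested genes were lower in B cells, and Cd2 did not pass at -0.43 ± 0.31. Of the 21 genes of this list in the table, 16 had 0 UMIs in the B cells. Thy1, a surface marker of T cells, had 0 UMIs in all B cells, against 312, 197, 353 and 474 CPM in T cells of null PNX, null sham, control PNX and control sham, so its level in B cells was at least 19.3-fold lower. The other genes named by size on this side were also at 0 in B cells, and their levels in B cells were at least 14.9-fold lower for Nkg7, 14.6-fold for Skap1, 13.9-fold for the IL-7 receptor gene Il7r, 11.3-fold for Fyb, 11.02-fold for Tcf7, 9.14-fold for Ctla2a, 8.93-fold for Cd6, 8.85-fold for Bcl11b and 8.72-fold for Cd247. These bounds are set by the 188906 UMIs of all B cells, in which 3 UMIs make 15.9 CPM. Of the neutrophil genes, S100a8 and S100a9 were lower in B cells, and 85.2% of the S100a8, S100a9, Camp and Ngp UMIs of the control PNX T cells were in 1 cell.

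Subset genes were read by cell. Mzb1, an endoplasmic reticulum chaperone of marginal zone, B-1 and secreting B cells, had 845, 721, 319 and 488 CPM in B cells of null PNX, null sham, control PNX and control sham and 0 UMIs in T cells, so it was at least 526-fold higher. It was seen in 45 of 60 B cells, and 29 of its 55 null PNX UMIs were in the Jchain cell. Fcer2a (CD23), a receptor of follicular B cells, had 76.8, 246, 319 and 84.9 CPM in B cells, against 5.61, 1.30, 0 and 0 in T cells, and was seen in 19 of 60 B cells. Of the follicular list, 3 of 5 tested genes were higher, namely Cd55, Fcer2a and Fcrl1, beside 5.81% of all tested genes. Of the marginal zone list 1 of 2 tested was higher, Mzb1, which is also on the plasma cell list. Cr2 was in 3 B cells and Fcrl5 in 5, each against 0 T cells. Gm43603, a gene with no role known here, had 79 UMIs in B cells and 0 in T cells, a level at least 327-fold higher.

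Apart from Mzb1, genes of other B cell states were seen at this depth in 0 to 23 of the 60 members. The most frequent were Vpreb3 in 23, Zbtb20 in 19, Zeb2 in 16 and Cd9 in 12. Neither tested gene of the B-1 list, Ahnak and Cd9, passed, and Cd5 was in 0 of 60 B cells (the exact upper limit of 5.96% holds for cells with a UMI, not for cells that express the gene), Zbtb32 in 4 and Bhlhe41 in 3. The cycling genes Mki67 and Top2a were each in 0 of 60 B cells, against 20 and 25 of 522 T cells. These are 3.83% and 4.79% of T cells, below the upper limit of 5.96% for 0 of 60, so these counts do not set the classes apart. The precursor genes Vpreb1, Igll1, Dntt and Cd93 were also in 0 of 60, and Vpreb3 was the 1 tested gene of that list and was higher. Of 4 tested plasma cell genes only Mzb1 was higher, the same call as on the marginal zone list, and Sdc1, Slpi and Xbp1 did not pass. Of the 9 genes on the age-associated and memory list only 2 were tested, and both were higher, beside 5.81% of all tested genes. Zeb2 was at 3.57 ± 0.57 (edgeR FDR 2.54e-04) and Zbtb20 at 1.25 ± 0.38 (edgeR FDR 0.0398). Zbtb20 was higher in 3 of the 4 libraries, and its call was lost with control sham left out (0.337) or null sham left out (0.230). The untested genes of that list were rare. Tbx21, Itgam and Nt5e were in 0 of 60 B cells, Itgax and Cd80 in 1 each, Pdcd1lg2 in 2 and Fcrl5 in 5.

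Stress and activation genes moved in both directions. Of 17 tested activation and immediate-early genes, 3 were higher, 1 was lower and 13 did not pass, with a median log2 difference of 0.26, beside the same shares of 5.81% and 6.35% over all tested genes. Cd83, an activation marker, had 3.81 ± 0.68 (edgeR FDR 7.67e-04). Dusp2, Jund and Tnfaip3 were called at 1.33, 0.66 and -2.06, Dusp2 being higher in 3 of the 4 libraries, and each call was lost with null sham left out (edgeR FDR 0.0566, 0.416 and 0.0640). The call of Jund was also lost with control sham left out (edgeR FDR 0.130). Of 7 tested heat shock genes Hspa8 was lower at -0.81 ± 0.19 (edgeR FDR 0.00817), and was not called with control PNX left out (0.0630). Of 5 tested interferon genes Ly6e was higher at 0.95 ± 0.17 (edgeR FDR 7.63e-04) and Ly6a at 1.28 ± 0.34, and Ly6a was not called without null PNX (0.220) or without the 3 deepest cells (0.123). Without the low-count filter Ly6e had 0.47 and Ly6a 0.80, and neither was called (edgeR FDR 0.309 and 0.147). Of 4 tested cytokine genes, Ccl5, a chemokine of T cells, was lower at -5.17 ± 0.47 (edgeR FDR 3.96e-07).

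Between libraries there was 1 sum of B cells per group, so ratios of CPM are given with exact 95% intervals and no test. A gene with at least 20 UMIs over both libraries was counted when its ratio was at least 2 or at most 0.5 and its interval left out 1. Null PNX against null sham gave 156 of 789 genes counted as higher (19.8%) and 98 as lower (12.4%). Without the 3 deepest null PNX cells the counts were 56 and 34 of 526 genes. Only 27 of the 156 and 33 of the 98 were among them, and 99 and 7 then had too few UMIs. The same comparison in T cells counted 16.1% of 7033 genes as higher and 4.64% as lower. T cells were not limited by Sftpc, and their AT2 marker sums were 66061 CPM in null PNX and 38442 CPM in null sham. The part of alveolar RNA in these T cell counts was not tested.

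The 5 genes named by size as higher in null PNX than null sham were Jchain, the keratins Krt19 and Krt7, and Anxa1 and Anxa3. Jchain had 1784 UMIs against 0, in 1 cell. Krt19 had 210 UMIs against 0, of which 83.3% were in 1 cell, and stood at 95.1 CPM without the 3 deepest cells. Krt7, Anxa1 and Anxa3 had 129, 88 and 82 UMIs against 0, with 54.3%, 51.1% and 68.3% of them in 1 cell. Without the 3 deepest cells they fell from 1981, 1351 and 1259 CPM to 95.1, 190 and 31.7 CPM. All 5 genes then had too few UMIs to be counted. Among the genes named as lower, Cbr2, an enzyme abundant in lung epithelium, had 1 UMI in null PNX and 37 in null sham, at 15.4 and 607 CPM, a ratio of 0.0253 (0.000624 to 0.15). In T cells Cbr2 had 257 and 1777 CPM in the same order, a ratio of 0.144. Rps27rt, Gm8186 and Gm8369 were also lower in both classes, with ratios of 0.0937, 0.0986 and 0.134 in B cells and 0.248, 0.241 and 0.133 in T cells. Il2rg, a chain shared by several cytokine receptors, had 5 UMIs in null PNX B cells and 29 in null sham, a ratio of 0.162 (0.0488 to 0.422), and in T cells its ratio of 0.627 was not counted.

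Null PNX against control PNX gave 98 of 523 genes counted as higher (18.7%) and 51 as lower (9.75%), and 23 and 16 of 272 without the 3 deepest cells. Only 17 of the 98 and 16 of the 51 were still counted without those cells, and 72 and 6 then had too few UMIs. Jchain, S100a6, Krt19, Krt8 and Krt18 led the higher genes with 0 UMIs in control PNX, and 87.0% of the 415 null PNX S100a6 UMIs were in 1 cell. For Krt8 and Krt18, 48.7% of 156 and 55.2% of 143 UMIs were in 1 cell. Without the 3 deepest cells S100a6, Krt8 and Krt18 stood at 444, 254 and 285 CPM. All of these leading genes then had too few UMIs to be counted. Ebf1 was among the 5 named as lower, with 19 UMIs at 292 CPM in null PNX and 27 UMIs at 1724 CPM in control PNX, a ratio of 0.169 (0.0889 to 0.316). Without the 3 deepest cells the ratio was 0.331 and was still counted. Rps27rt, Rpl23a-ps3 and Snrpg, named with it, were lower in T cells too, with ratios of 0.213, 0.267 and 0.347 there.

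Null sham and control sham had the most B cells. Of 574 genes, 20 were counted as higher in null sham (3.48%) and 15 as lower (2.61%). Jun, an immediate-early factor, had 24 UMIs in null sham and 4 in control sham, a ratio of 4.64 (1.59 to 18.4), and in T cells its ratio of 0.792 was not counted. Ms4a6c had the same UMIs and ratio, and H2-Q6, Gm8369 and Smap2 followed at 4.38, 4.06 and 3.67. Lower were Gm10116 with 1 UMI against 50, H2-Eb1 with 11 against 130 and Prr13 with 4 against 18, and the first 2 of these were counted as lower in T cells as well, at ratios of 0.103 and 0.0422. Crip1 had 40 UMIs against 134, but 70.9% of the control sham UMIs were in 1 cell, and Vim had 10 against 25, of which 48.0% were in 1 cell.

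Control PNX against control sham rested on 5 and 18 B cells. Of 321 genes, 8 were counted as higher (2.49%) and 12 as lower (3.74%). Atp6v1g1, a subunit of the proton pump, had 12 UMIs in control PNX and 10 in control sham, a ratio of 3.61 (1.43 to 9.33), and Itm2b, Gdi2, Psmb1 and Ppp1ca followed at 3.01, 2.63, 2.61 and 2.55. Of the 11 control PNX UMIs of Ppp1ca, 81.8% were in 1 cell. Gm10116 had 0 UMIs against 50, at least 5.54-fold lower, and Vim had 0 against 25, at least 2.77-fold lower. H2-Eb1 had 4 UMIs against 130, a ratio of 0.0926 (0.0249 to 0.243), Crip1 9 against 134, and Plac8 3 against 40, a ratio of 0.226 (0.0447 to 0.709). In T cells the ratio of Plac8 was 0.954 and was not counted. This comparison and the one of the sham libraries share control sham, so the genes low in both are not 2 separate results.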

How the data were processed

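The deposited table holds raw UMI counts per gene (17117) and cell (10077), and barcode endings give the library, per the labels. Per the submitters' processing notes, Cell Ranger 2.1.0, Seurat 2.3.4 and build mm10 were used, in roles not given in the sources used here. Nothing was normalized before summing. The members, gene lists and rule for named genes were chosen with earlier results of these data known. Named genes are the 15 highest and 10 lowest differences past FDR 0.05 with the same direction in 4 libraries and a mean of 50 CPM, list members, and 5 genes each way per library pair.

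Counts were summed per library and class. edgeR 4.0.16 in R 4.3.3 used TMM factors, its default low-count filter and library as a block. The pairing comes from the design, since B and T cells of a library were sorted together. Correlations of their deviations from the class means within a library were 0.595 in null PNX, 0.184 in null sham, 0.0996 in control PNX and 0.238 in control sham. Between B and T cells of different libraries they ran from -0.467 to 0.156. The highest of those, control PNX B cells with control sham T cells, was above the control PNX value for its own T cells. On simulated counts for 2328 genes, the test called 56 of 87 genes changed 4-fold, 8 of 90 changed 2-fold and 1 of 2151 unchanged ones. The simulation had no differences between libraries and a dispersion above the common value of 0.0374 fitted here. These rates therefore need not hold for the real counts. DESeq2 1.42.0 was an alternative. Genes with 0 UMIs in a class were set to 3 UMIs pooled over the class for a lower bound on the ratio. Whether libraries pooled mice is not known, so p-values measure the spread between libraries. Gene positions are from GENCODE M21 (GRCm38). Some genes that the rule for named genes picks are not reported here.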

Additional observations from a re-analysis of the deposited data

Results flagged for a closer look

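The B cell levels of the genes named as highest, of the class II genes, and the B cell shares were checked for a library far from the others, 29 quantities in all. A library was set apart when its gap to the nearest other, as a share of the range of the 4, passed the 95% critical value of Dixon's test. Chance does this in about 1 of 20 cases, and 5 quantities met it. Ebf1 was lowest in null PNX at 292 CPM, with the next library at 1719. H2-Eb1 was highest in control sham at 2758 CPM, with the next at 255. Fcrla was lowest in control PNX at 63.9 CPM on 1 UMI, with the next at 246. Blnk was highest in control sham at 276 CPM, with the next at 138. Ciita was highest in null sham at 131 CPM on 8 UMIs, with the next at 63.9.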

How the results depend on the processing

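Of the alternatives to the comparison of B and T cells, DESeq2, no TMM factors, other cell filters and a stricter B rule kept both counts of genes within 1.5 times the 128 higher and 140 lower. The genes were not all the same. DESeq2 shared 100 of the 128 and 105 of the 140. T cells with 0 B rule UMIs and under 4% Sftpc shared 93 and 90. Named genes not called with DESeq2 were Cd52, Jund, Tnfaip3, Ly6a and Zbtb20 (DESeq2 FDR 0.139, 0.104, 0.0547, 0.128 and 0.122). Without the low-count filter, which raised the genes tested to 14453, 140 genes were higher but held only 73 of the 128, so the other calls were lost, and 425 were lower, with all 140 among them. Named genes lost in this way were Cd52, Ptpn6, Sh3bp5, Il21r, Jund, Dusp2, Ly6a, Ly6e and Zbtb20. The cause was not tested. With no replicate block 90 were higher and 79 lower. Leaving out 1 library each gave 87 to 157 higher and 122 to 231 lower, with 231 lower without null PNX. All 25 genes named by size kept direction and call under each alternative in which they were tested. Of 80 called genes checked, which include them, 17 lost the call under at least 1 alternative and 0 reversed. With no replicate block the losses included Cd81 and Itgb7 (edgeR FDR 0.137 and 0.0613). With the rule at 2 UMIs null PNX had 0.928% B cells and 14.1 per 100 B and T cells, outside the intervals given. With at least 50 UMIs per gene, the counts of higher and lower genes fell to 60 and 49 for null PNX against null sham, 49 and 32 against control PNX, 9 and 5 for null sham against control sham, and 3 and 5 for control PNX against control sham, where fewer genes were tested. Without the 3 deepest cells, added after the data were seen, they were 56 and 34, and 23 and 16, for the first and second of these pairs. Of these, 27 and 33, and 17 and 16, were also counted with those cells kept. Dropping droplets with 3 or more UMIs of any other type's markers left 0 B cells and could not be run. A version without AT2 markers, added later, gave 123 and 113 of 1242 genes. Light-chain and heavy-chain shares were not run, since those genes were not analysed here. Leaving out a library was not possible for ratios between single libraries. The 15661 UMIs of the 5 control PNX cells limit every value of that library.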

Other observations

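Genes outside the lists, named here after their values were seen, also differed between B and T cells. Unc93b1, which carries Toll-like receptors to endosomes, had 246, 279, 447 and 169.7 CPM in B cells of null PNX, null sham, control PNX and control sham, against 12.3, 9.09, 9.80 and 10.5 in T cells, a log2 difference of 4.60 ± 0.38 (edgeR FDR 1.35e-07). Irf5, a factor downstream of those receptors, had 4.05 ± 0.55 (edgeR FDR 3.68e-05). Hvcn1, a proton channel of B cells, had 3.67 ± 0.41 (edgeR FDR 4.43e-06), and Lmo2, a transcriptional cofactor, had 5.37 ± 0.51 (edgeR FDR 7.05e-07). Apoe, the lipid carrier, had 384, 459, 255 and 255 CPM in B cells, against 101, 87.0, 94.8 and 169 in T cells. On the T cell side, Id2, an inhibitor of E proteins, had 61.4, 32.8, 0 and 0 CPM in B cells, against 602, 569.9, 931 and 658 in T cells, a log2 difference of -4.32 ± 0.45 (edgeR FDR 1.84e-06). Lgals1, a lectin, had 338, 0, 0 and 63.7 CPM in B cells, against 1483, 806, 899 and 1351 in T cells.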
